A study of Homo sapiens with 12 samples.

Results

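Long noncoding RNA (lncRNA) genes were followed in MiaPaca2 cells, a human pancreatic ductal adenocarcinoma (PDAC) line. The genes were the autosomal lncRNA genes of GENCODE release 44 whose Ensembl identifier stood in the count tables and which had at least 10 counts in at least 3 of the 12 libraries. They were thus chosen by their level over all libraries, not by a difference between groups. This level rule kept 2873 of the 12606 autosomal lncRNA genes in the tables. Any count at all was seen for 6683 of the latter, and the tables held 63677 identifiers altogether. By name, 244 were divergent transcripts (-DT), 711 were antisense transcripts (-AS), 186 carried a LINC name, 195 had another symbol and 1537 had an Ensembl identifier only.

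RNA-seq gene counts were available for 4 groups of 3 libraries each, 2 of them unprimed and 2 epigenetically primed, all after 24 h. Con cells received DMSO, CPT cells received 1 µM of the Vitamin D analog calcipotriol, GTA+5-Aza cells received 2 mM glyceryl triacetate and 1 µM 5-Aza-2′-deoxycytidine, and CPT+GTA+5-Aza cells received all 3 agents at these doses. GTA is an acetate source that raises histone acetylation, and 5-Aza is a DNA methyltransferase inhibitor. Primed cells always received both agents, so their separate effects cannot be told apart, and all data come from 1 cell line grown in bulk culture.

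LncRNAs are transcripts longer than typical small RNAs that are not translated into a known protein. A -DT gene starts close to the start of the coding gene in its name and runs the other way, and an -AS gene lies on the opposite strand of the gene in its name or next to it. LINC genes lie between coding genes. Some lncRNAs carry small RNAs in their introns or exons (snoRNA and microRNA host genes), and some, such as MEG3 and H19, are imprinted, so that DNA methylation normally keeps 1 parental copy silent.

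The promoters shown are those of 4 genes. These had the smallest p among the upregulated members of their name class that RefSeq held a promoter for. These promoters are shown because 5-Aza lowers DNA methylation, which lies mainly on CpG. Each runs from 250 bases before to 50 bases after the RefSeq start in GRCh38.p14, is written 5′ to 3′ on the gene's strand, and has its CpG dinucleotides in capitals. BOLA3-DT (chr2:74147731-74148030, plus strand) held 41 CpG, LINC00963 (chr9:129488410-129488709, plus strand) 43, MEG3 (chr14:100825858-100826157, plus strand) 19 and DNMBP-AS1 (chr10:99926955-99927254, plus strand) 3. At least as many CpG were found in 6.62%, 4.94%, 43.2% and 81.0% of the 26246 RefSeq promoters of this length, respectively. RefSeq starts of MEG3 and LINC00963 lie well inside the gene as GENCODE draws it. DNA methylation was not measured in these libraries.
BOLA3-DT: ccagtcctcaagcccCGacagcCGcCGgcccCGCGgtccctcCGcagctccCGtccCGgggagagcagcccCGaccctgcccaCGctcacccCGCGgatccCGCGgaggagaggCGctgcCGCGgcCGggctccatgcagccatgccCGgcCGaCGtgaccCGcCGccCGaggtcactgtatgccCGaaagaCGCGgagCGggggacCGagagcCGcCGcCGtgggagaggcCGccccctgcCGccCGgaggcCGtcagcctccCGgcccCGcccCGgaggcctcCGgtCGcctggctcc
LINC00963: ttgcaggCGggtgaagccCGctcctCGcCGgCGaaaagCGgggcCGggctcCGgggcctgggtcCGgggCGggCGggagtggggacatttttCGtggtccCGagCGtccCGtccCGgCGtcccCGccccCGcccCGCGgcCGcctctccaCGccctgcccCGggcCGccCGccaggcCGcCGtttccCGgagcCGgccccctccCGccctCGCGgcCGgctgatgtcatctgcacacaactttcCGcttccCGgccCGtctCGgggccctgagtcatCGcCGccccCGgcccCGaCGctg
MEG3: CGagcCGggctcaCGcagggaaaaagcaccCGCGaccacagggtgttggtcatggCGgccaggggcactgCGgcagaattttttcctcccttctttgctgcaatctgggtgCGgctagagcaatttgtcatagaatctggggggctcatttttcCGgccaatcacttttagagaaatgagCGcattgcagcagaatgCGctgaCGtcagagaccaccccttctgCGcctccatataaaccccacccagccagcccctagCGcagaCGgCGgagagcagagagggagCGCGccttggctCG
DNMBP-AS1: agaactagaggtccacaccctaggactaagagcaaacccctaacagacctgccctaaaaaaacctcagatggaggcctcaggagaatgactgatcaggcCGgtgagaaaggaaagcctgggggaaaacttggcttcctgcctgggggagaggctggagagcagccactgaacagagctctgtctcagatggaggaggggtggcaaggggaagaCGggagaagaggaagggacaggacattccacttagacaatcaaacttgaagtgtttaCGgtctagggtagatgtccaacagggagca

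The 12 libraries held 16162490 to 21224665 counts, and the lncRNA genes held 3.28 to 3.57% of them. Among markers of the line, KRT8, KRT18 and VIM were present in every library and KRT19 was at 28.4 to 41.4 CPM (counts scaled to the library total), whereas the epithelial genes EPCAM and CDH1 had at most 1 and 4 counts in any library. Of 9 markers of other cell types, 6 had 0 counts in every library, and their summed level was 0.0477 to 0.368 CPM in unprimed and 1.16 to 2.25 CPM in primed libraries, where the collagen gene COL1A1 reached 2.2 CPM. Whether these marker counts came from other cells or from the line itself was not tested. Replicates are separate samples by their labels only, so p-values measure the spread between these samples.

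Levels of lncRNA genes were low. Their mean over the 12 libraries had a median of 2.14 CPM, against 29.7 CPM for the protein-coding genes tested. By name class the median was 3.32 CPM for -AS, 1.55 for -DT, 1.37 for LINC, 2.07 for other symbols and 1.93 for genes with an identifier only. Just inside the rule, 169 genes reached 10 counts in exactly 3 libraries (median 0.338 CPM), and just outside it 252 reached 10 counts in 2 libraries (median 0.275 CPM). All 12 libraries reached 10 counts in 1834 members. Membership rested on primed libraries alone in 31 members and on unprimed libraries alone in 36, so for these the rule itself favoured a difference.

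Many of these genes lie across coding genes. Exons of 2153 members (74.9%) overlapped an exon of another gene, and exons of 1804 (62.8%) lay partly on exons of a coding gene on the opposite strand. The latter held 85.3% of all member counts, and the 720 members without any exon overlap held 5.56%. By name class, 85.9% of -AS, 48.4% of -DT and 6.99% of LINC genes overlapped a coding exon. The level per length relative to the coding gene was higher where more was overlapped. Where at most 20% of the lncRNA exon bases lay on the antisense coding exons, the lncRNA stood at a median of 0.257 of the coding gene's CPM per kb of exon (724 genes). Above 95%, it stood at 1.93 (270 genes), and the log2 levels of lncRNA and coding gene had a Pearson r of 0.83 across genes of the same libraries. The counts' strand setting is not given in the sources used here, so reads of such an lncRNA and of its coding partner cannot be told apart. Exon positions are those of GENCODE release 44, which is later than the annotation behind the counts.

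**Figure D1:**
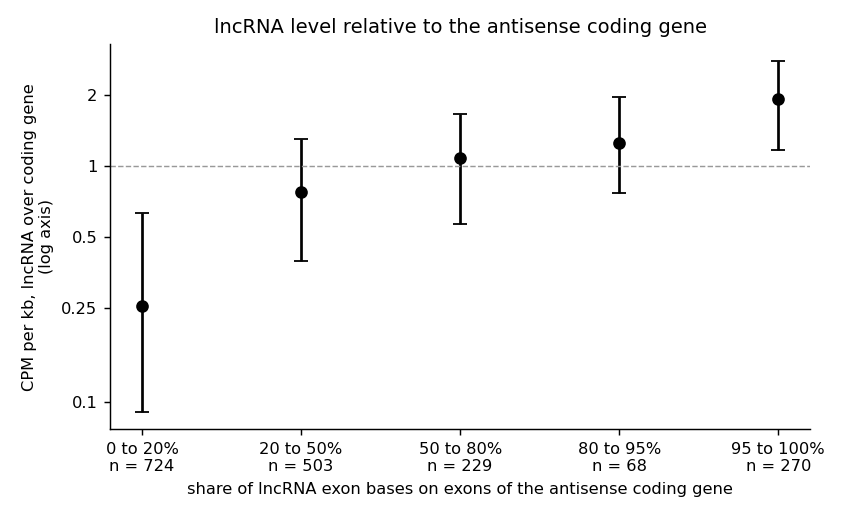
CPM per kb of exon of each lncRNA gene divided by that of the coding gene on the opposite strand (log axis), by the share of lncRNA exon bases on its exons; points are medians, bars run from the first to the third quartile over genes, and n is the number of genes. The median ratio went from 0.257 at up to 20% to 1.93 above 95%.

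The 5 lncRNA genes with the highest CPM per kb of exon were ENSG00000269968, ENSG00000234961, ENSG00000265401, ENSG00000272540 and VIM-AS1. All had exon bases on the exons of an abundant coding gene, with 100% on GAPDH (a glycolytic enzyme) for ENSG00000269968, 87.7% on VIM (vimentin) for ENSG00000234961, 100% on UBB (ubiquitin) for ENSG00000265401, 69.6% on TUBB (tubulin) for ENSG00000272540 and 30.9% on VIM for VIM-AS1. ENSG00000269968 was at 1870 to 2180 CPM in the 12 libraries, with a log2 fold change of 0.08 in GTA+5-Aza against Con. None of the 5 was called in any comparison.

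Priming without CPT upregulated 88 lncRNA genes and downregulated 32 of the 2786 that passed the filter on low counts (adjusted p under 0.05 and fold change above 1.5). The other 87 members were not tested. The 88 were 3.16% of the lncRNA genes tested against 5.03% upregulated among all 17123 genes, and the 32 were 1.15% against 0.876%. The median log2 fold change was 0.01 for lncRNA genes and 0.01 for all genes. An unadjusted P under 0.05 was found for 415 lncRNA genes, or 14.9% against 29.4% of all genes. Read as a 1.5-fold threshold with P under 0.05 before adjustment, the study's rule gave other counts: 153 lncRNA genes were upregulated and 81 downregulated, against 1168 and 278 of all 17123 genes. Among 672 tested members without exon overlap, 21 were upregulated and 13 downregulated, with a median of -0.06. Fewer cells and less RNA per cell cannot be told apart in such bulk samples. Leaving out Con replicate 3 or GTA+5-Aza replicate 3 left 57 upregulated genes. For downregulated genes the count dropped to 18 when Con replicate 3 was left out, to 19 for GTA+5-Aza replicate 1, and to 21 for Con replicate 1 or GTA+5-Aza replicate 3.

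Of 181 LINC genes tested, 11 were upregulated and 6 downregulated (9.39% called against 5.9% of all genes). For -AS genes the counts were 26 and 7 of 697, for other symbols 7 and 2 of 192, and for genes with an identifier only 39 and 12 of 1478. The -DT genes were evenly split, with 5 upregulated and 5 downregulated of 238 and a median of -0.05. In the 111 tested -DT genes without exon overlap the median was -0.12, and 65 of them had a negative log2 fold change. Without exon overlap 9 of 83 -AS (10.8%) and 9 of 107 LINC genes (8.41%) were called, against 5.06% of all 672 such members. With CPT these 3 shares were 4.82%, 7.48% and 4.91%, against 5.79% of all genes. These differences between classes were not tested. With single libraries left out, the number called without CPT went as low as 3 for -DT and 9 for LINC genes (Con replicate 3 in both). It went as low as 20 for -AS genes (Con or GTA+5-Aza replicate 3) and 30 for genes with an identifier only (Con replicate 1).

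**Figure D2:**
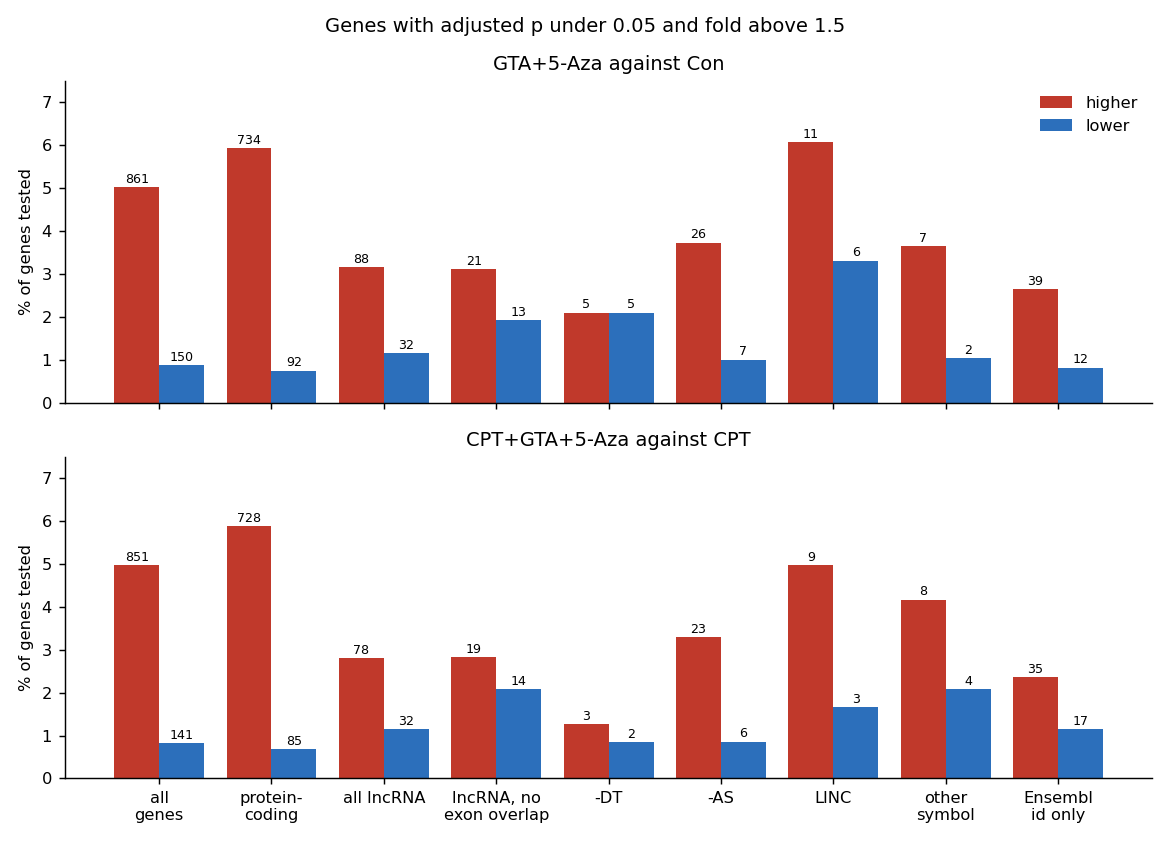
Percentage of tested genes with an adjusted p under 0.05 and a fold change above 1.5 (y axis), upregulated in red and downregulated in blue, by gene set (x axis), for priming without CPT (top) and with CPT (bottom), with the number of genes on each bar. The upregulated share without CPT was 3.16% for lncRNA genes and 5.03% for all genes, a difference that was not tested, and 5 -DT genes were called in each direction.

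The share of upregulated genes was compared within ranges of level. At 1 to 3 CPM, 2.96% of 742 lncRNA genes were upregulated against 13.5% of 963 coding genes, and 2.07% of 193 lncRNA genes without exon overlap. At 3 to 10 CPM the shares were 5.18%, 16.1% and, for 95 genes without exon overlap, 10.5%. Above 10 CPM they were 3.6% of 528 lncRNA genes and 2.97% of 8942 coding genes. Of the 25 lncRNA genes without exon overlap in this range, 3 were upregulated, namely BCAN-AS1, PPP1R26-AS1 and DLGAP1-AS2, named here after their values were seen. PPP1R26-AS1 and DLGAP1-AS2 overlap the body of a coding gene, though not its exons. PPP1R26-AS1 lost its call without Con replicate 1.

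**Figure D3:**
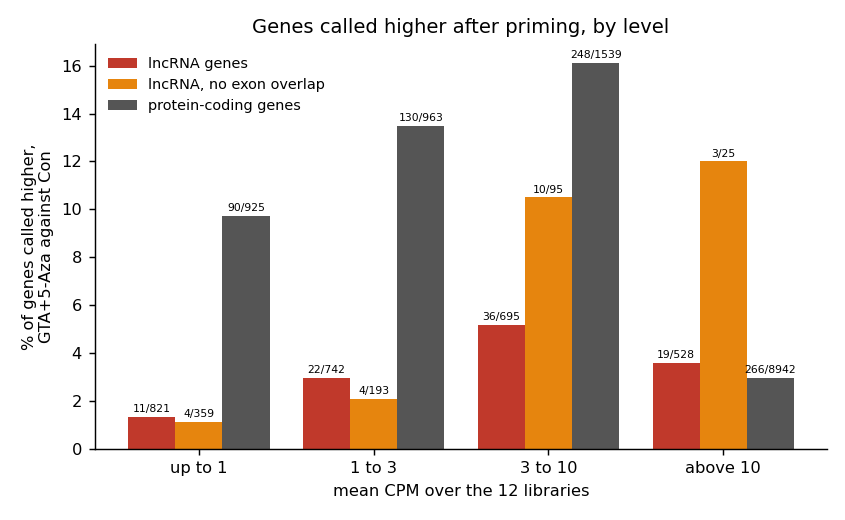
Percentage of genes upregulated in GTA+5-Aza against Con (y axis) by mean CPM over the 12 libraries (x axis), for all lncRNA genes tested, those without exon overlap and protein-coding genes, with the number upregulated over the number tested. Between 3 and 10 CPM 5.18% of lncRNA and 16.1% of coding genes were upregulated.

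MEG3, the maternally expressed lncRNA of the imprinted DLK1-MEG3 region (chr14:100779410-100861031, plus strand), had the largest fold change among upregulated lncRNA genes with a symbol and a count in Con above 3. Its level was 0.368, 0.0477 and 0 CPM in Con and 6.09, 6.46 and 6.38 CPM in GTA+5-Aza. With CPT it was 0.44, 0 and 0 CPM in unprimed and 9.19, 5.73 and 6.12 CPM in primed cells. Unprimed libraries held at most 8 counts and primed libraries at least 100, without overlap. MEG3 is thus among the 31 members that met the rule through primed libraries alone, which favoured a difference. The log2 fold change was 5.50 ± 0.57 without CPT (approximate SE, n = 3 per group, edgeR adjusted p = 1.9e-07). It was 5.57 ± 0.57 with CPT (edgeR adjusted p = 1.42e-07). Leaving out single libraries or changing settings moved the value without CPT between 4.92 and 7.68. Its promoter, printed above, held 19 CpG. MEG3 exons overlap those of 4 other genes, none of them coding.

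Other genes of the MEG3 region were also examined. RTL1, a coding gene of the same region, was upregulated, from 8 to 13 counts in Con to 34 to 51 in GTA+5-Aza (log2 fold change 2.14, edgeR adjusted p = 0.00279). Its span overlaps that of the lncRNA gene MEG8, and the strand setting is not given. Reads of RTL1 and of lncRNAs across it thus cannot be told apart. DLK1 had 8 to 14 counts in Con and 13 to 37 in GTA+5-Aza, and its log2 fold change of 1.34 did not pass (edgeR adjusted p = 0.0757), nor did that of 1.27 with CPT (edgeR adjusted p = 0.0848). MEG8 and MEG9, the lncRNA genes downstream, were too low for membership, with at most 4 and 11 counts in any library.

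H19, the maternally expressed lncRNA beside IGF2 (chr11:1995166-2004552, minus strand), was upregulated as well. It was at 19.4, 24.2 and 21.3 CPM in Con and at 37.0, 32.9 and 36.5 CPM in GTA+5-Aza, without overlap. The log2 fold change was 0.71 ± 0.15 (edgeR adjusted p = 0.00166), and 0.69 ± 0.16 with CPT (edgeR adjusted p = 0.00253), where 1 of the unprimed libraries stood at 28.1 CPM, close to the lowest primed library at 28.9 CPM. The other imprinted lncRNA genes tested did not pass without CPT. KCNQ1OT1, antisense to KCNQ1, had 247 to 339 counts in Con and 205 to 327 in GTA+5-Aza. SNHG14, the long transcript of the Prader-Willi and Angelman region, had a log2 fold change of 0.19 without CPT and 0.36 ± 0.09 with CPT (edgeR adjusted p = 0.00601, fold below 1.5). Of 18 imprinted lncRNA genes listed 12 were in the tables and 4 were members and tested, of which 2 were upregulated (5.03% of all genes), with a median log2 fold change of 0.45.

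UCA1, a cancer-associated lncRNA first described in bladder cancer (chr19:15828206-15836328, plus strand), had the smallest p among lncRNA genes with a symbol. It was at 242, 244 and 253 CPM in Con and at 370, 389 and 391 CPM in GTA+5-Aza, a log2 fold change of 0.64 ± 0.05 (edgeR adjusted p = 2.29e-09). With CPT it went from 293, 282 and 292 CPM to 433, 435 and 420 CPM, and its log2 fold change of 0.57 ± 0.05 lay below the fold threshold (edgeR adjusted p = 1.44e-08). The groups did not overlap in either comparison. LINC01764 (chr19:15827005-15835853, minus strand) lies across UCA1 on the other strand with overlapping exons, so reads of both cannot be told apart. It was at 63.5, 71.3 and 65.2 CPM in Con and at 111, 118 and 107 CPM in GTA+5-Aza (log2 fold change 0.75 ± 0.07, edgeR adjusted p = 9.11e-08). With CPT, LINC01764 had 0.58 ± 0.07 (edgeR adjusted p = 2.87e-06), below the fold threshold.

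**Figure D4:**
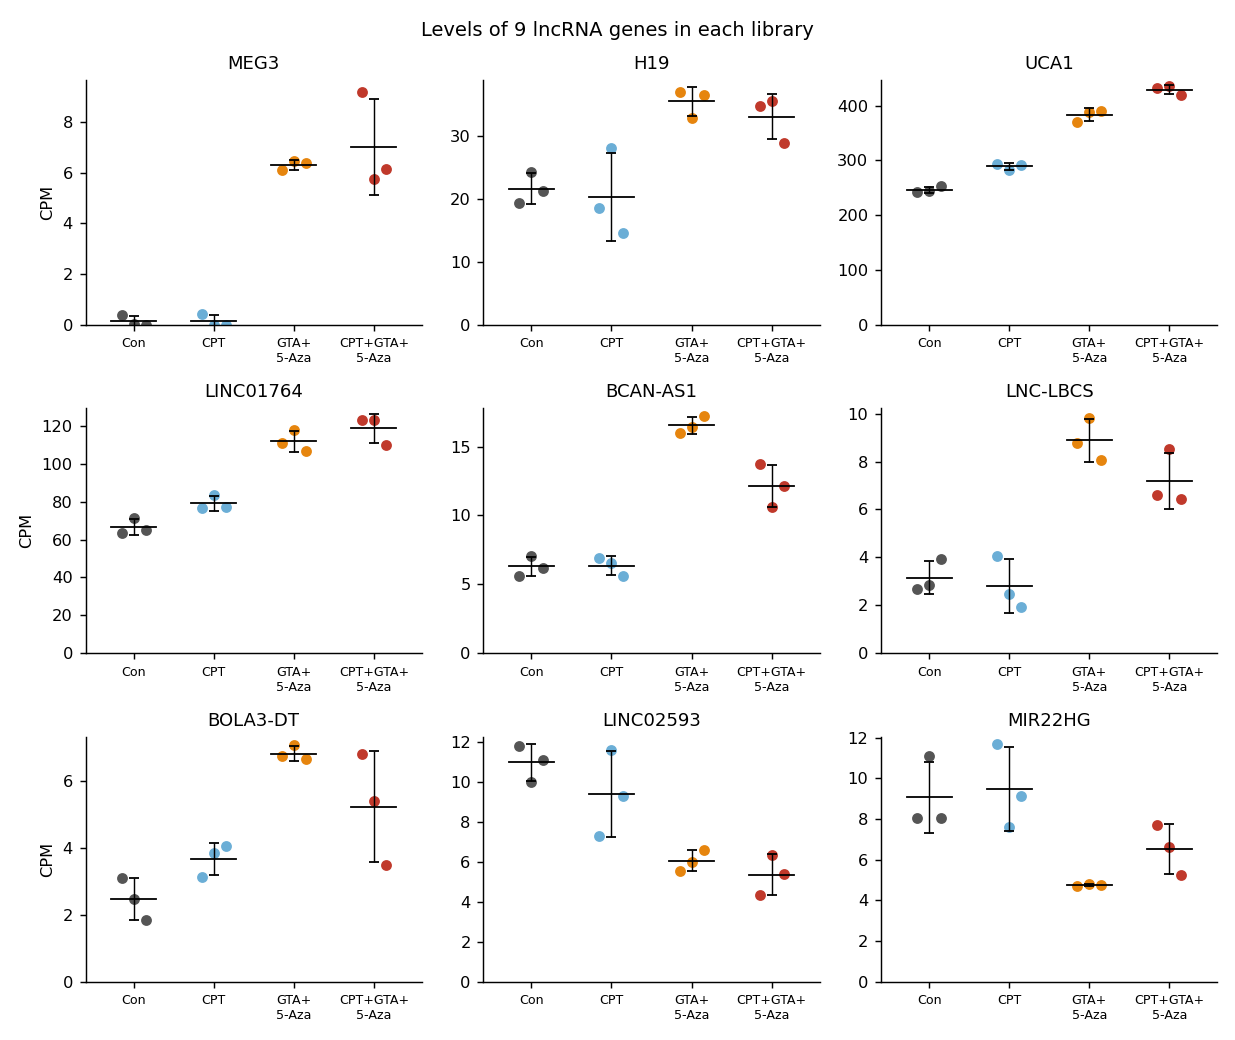
CPM (y axis, from 0) of 9 lncRNA genes in each of the 12 libraries (points), by group (x axis), with the mean (long line) and SD (bars) of 3 libraries. MEG3 was at 0 to 0.44 CPM in unprimed and 5.73 to 9.19 CPM in primed libraries, and BOLA3-DT, at 6.66 to 7.06 CPM in GTA+5-Aza, was at 3.49 to 6.81 CPM in CPT+GTA+5-Aza.

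Gains were also found in genes whose exons overlap no other gene. BCAN-AS1 (chr1:156637783-156641004, minus strand), which starts 386 bases from the start of BCAN, the gene of the proteoglycan brevican, was at 5.63, 7.05 and 6.22 CPM in Con and at 16.0, 16.4 and 17.2 CPM in GTA+5-Aza. Its log2 fold change was 1.39 ± 0.15 (edgeR adjusted p = 4.69e-07), and with CPT 0.93 ± 0.16 (edgeR adjusted p = 0.000134). BCAN itself was at 7.26, 10.2 and 10.8 CPM in Con and at 24.5, 21.5 and 26.0 CPM in GTA+5-Aza (log2 fold change 1.34 ± 0.17, edgeR adjusted p = 2.39e-06). BCAN-AS2, with 46.7% of its exon bases on BCAN exons, went from 4.26, 8.1 and 8.7 CPM to 13.3, 15.1 and 15.2 CPM. The 3 genes of this locus were thus upregulated without overlap of the groups.

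LNC-LBCS (chr6:19323428-19839080, minus strand) starts 1710 bases from the start of ID4, a gene of the inhibitor of DNA binding family. Its exons overlap no other exon, but its body overlaps that of a coding gene on the opposite strand. It was at 2.68, 2.86 and 3.94 CPM in Con and at 8.76, 9.82 and 8.07 CPM in GTA+5-Aza, a log2 fold change of 1.49 ± 0.24 (edgeR adjusted p = 6.55e-05). With CPT it was upregulated by 1.35 ± 0.24 (edgeR adjusted p = 0.000275). The primed libraries of both comparisons were all above the unprimed ones. BOLA3-DT (chr2:74148007-74151952, plus strand), divergent to the iron-sulfur cluster gene BOLA3, was at 3.1, 2.48 and 1.85 CPM in Con and at 6.73, 7.06 and 6.66 CPM in GTA+5-Aza (log2 fold change 1.46 ± 0.25, edgeR adjusted p = 0.000155). BOLA3 was at 31.9, 34.9 and 30.8 CPM in Con and 31.4, 34.5 and 34.0 CPM in GTA+5-Aza, a log2 fold change of 0.03. With CPT, BOLA3-DT at 6.81, 5.39 and 3.49 CPM overlapped its controls at 3.13, 3.84 and 4.04 CPM, and did not pass (edgeR adjusted p = 0.162).

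A few lncRNA genes were close to absent in Con. At most 3 counts in every Con library were found for 9 members, and 5 of the 6 that were tested were upregulated, a count that their choice by low Con counts favours. LINC02953, LINC00479 and ZNF582-DT also became members through primed libraries alone. LINC02953 had 0 counts in all 6 unprimed libraries, 19, 14 and 2 in GTA+5-Aza and 8, 10 and 16 in CPT+GTA+5-Aza. Against the limit of 3 counts that a count of 0 allows in each library, its mean level was at least 4.15-fold higher without CPT and at least 4.2-fold higher with CPT. LINC00479 had 1, 3 and 0 counts in Con and 5, 22 and 22 in GTA+5-Aza (edgeR adjusted p = 0.00775), and its call was lost without Con replicate 3 or GTA+5-Aza replicate 3. In CPT cells it had 0 counts in every library, and its level was at least 5.92-fold higher in CPT+GTA+5-Aza. ZNF582-DT, divergent to a zinc finger gene, had 2 to 3 counts in Con and 14 to 19 in GTA+5-Aza, but 2 to 21 in CPT+GTA+5-Aza. It lost the call when any 1 of the 6 libraries of its comparison was left out. ITGB2-AS1 did not pass (edgeR adjusted p = 0.0921). PANK1-AS1 was not tested, with 0 to 12 counts in GTA+5-Aza.

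LINC00511 and LINC00963 were upregulated with and without CPT. LINC00511, a gene with 27.7 kb of exon, was at 3.21, 4.53 and 3.26 CPM in Con and at 6.09, 7.96 and 9.43 CPM in GTA+5-Aza (log2 fold change 1.09 ± 0.23, edgeR adjusted p = 0.00165). LINC00963 was at 19.5, 18.7 and 13.0 CPM in Con and at 25.6, 24.8 and 31.8 CPM in GTA+5-Aza (log2 fold change 0.68 ± 0.14, edgeR adjusted p = 0.000815). The groups did not overlap for either gene. The call of LINC00963 was lost without Con replicate 3, where the log2 fold change was 0.52, and also without GTA+5-Aza replicate 3.

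MIR22HG, the host gene of miR-22 (chr17:1711447-1717174, minus strand), was downregulated without CPT. It was at 8.05, 11.1 and 8.07 CPM in Con and at 4.7, 4.81 and 4.74 CPM in GTA+5-Aza, a log2 fold change of -0.93 ± 0.20 (edgeR adjusted p = 0.00151). With CPT the libraries overlapped, at 7.62 to 11.7 CPM in CPT and 5.27 to 7.71 CPM in CPT+GTA+5-Aza (edgeR adjusted p = 0.0628). LINC02593 (chr1:916865-921016, minus strand) was downregulated in both comparisons. It was at 11.8, 10.0 and 11.1 CPM in Con and at 5.56, 6.01 and 6.61 CPM in GTA+5-Aza (log2 fold change -0.85 ± 0.19, edgeR adjusted p = 0.0018), and its exons overlap no other gene. LINC00115, also at this end of chromosome 1, had a log2 fold change of -1.28 ± 0.37 (edgeR adjusted p = 0.017), lost without Con replicate 1 or GTA+5-Aza replicate 3. PARD6G-AS1 was at 14.1, 19.3 and 15.8 CPM in Con and 10.9, 7.01 and 11.9 CPM in GTA+5-Aza (log2 fold change -0.73 ± 0.18, edgeR adjusted p = 0.0059). It lost the call without GTA+5-Aza replicate 2. With CPT, neither LINC00115 (-0.76 ± 0.37, edgeR adjusted p = 0.165) nor PARD6G-AS1 (-0.45 ± 0.18, edgeR adjusted p = 0.0958) was called.

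Downregulated calls were also counted by distance from a chromosome end. Within 2 Mb of an end, 9 of 287 lncRNA genes (3.14%) were downregulated in GTA+5-Aza against Con. At 2 to 10 Mb it was 7 of 479 (1.46%), and beyond 10 Mb 16 of 2020 (0.792%). For coding genes the 3 shares were 1.98%, 1.01% and 0.582%. In CPT+GTA+5-Aza against CPT the lncRNA shares were 2.44%, 0.418% and 1.14%, so the middle range was lowest. The difference between positions was not tested.

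Priming in the presence of CPT upregulated 78 and downregulated 32 lncRNA genes (2.8% and 1.15% of those tested, against 4.97% and 0.823% of all genes), with a median log2 fold change of 0.02. An unadjusted P under 0.05 was found for 408, or 14.6% against 29.3% of all genes. Members without exon overlap gave 19 and 14. By class, 3 and 2 -DT, 23 and 6 -AS, 9 and 3 LINC, 8 and 4 other symbols and 35 and 17 genes with an identifier only were called, and among all genes 5.79% were called in either direction. The upregulated -DT genes were BTG1-DT, CRIM1-DT and PDXP-DT, of which the first 2 were named after their values were seen. The upregulated count was 51 without CPT replicate 1 and 121 without CPT replicate 2, and the downregulated count was 14 without CPT+GTA+5-Aza replicate 2 and 21 without CPT+GTA+5-Aza replicate 3. Genes with an identifier only went from 52 called to 79 without CPT replicate 2, 32 without CPT+GTA+5-Aza replicate 1 and 29 without its replicate 2, and -AS genes from 29 to 46 without CPT replicate 2. Without CPT+GTA+5-Aza replicate 2 there were 2 -DT, 7 LINC and 6 genes with another symbol called, and without CPT replicate 1 there were 7 LINC and 7 with another symbol.

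The comparisons of priming without and with CPT share no library. Upregulated in both were 42 lncRNA genes, 47.7% of the 88 without CPT and 53.8% of the 78 with CPT. Downregulated in both were 8, 25% of either list. Of the 88, 83 had a positive log2 fold change with CPT as well. Protein-coding genes upregulated in both were 66.1% and 66.6% of their lists, and those downregulated in both 41.3% and 44.7%. Across genes, the Pearson r between the log2 fold changes was 0.41 for 2786 lncRNA genes and 0.77 for 12369 coding genes, all measured in the same libraries. By class it was 0.23 for -DT, 0.32 for -AS, 0.62 for LINC, 0.68 for other symbols and 0.35 for identifiers only. The lncRNA genes had lower levels (a median of 2.14 against 29.7 CPM), and genes of like level were not compared here.

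**Figure D5:**
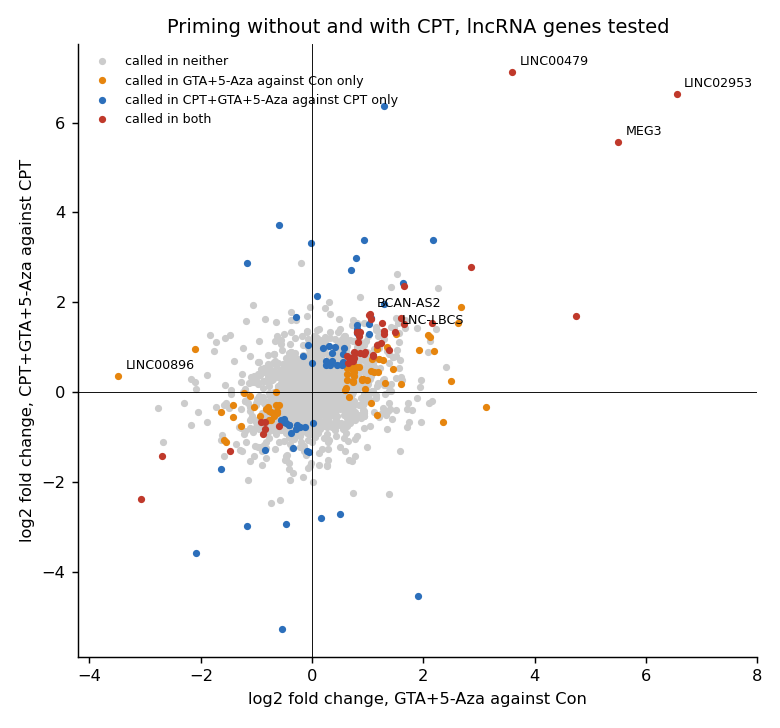
Log2 fold change of each lncRNA gene tested in GTA+5-Aza against Con (x axis) and in CPT+GTA+5-Aza against CPT (y axis), coloured by the comparisons in which it was called. MEG3, LINC00479 and LINC02953 lie at the upper right, where 42 genes were upregulated in both, and LINC00896, at the far left, lost its call without CPT when any 1 of the 6 Con and GTA+5-Aza libraries was left out.

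No lncRNA gene was called for CPT with edgeR. In CPT against Con, 0 of 2786 were called (0.0% of all genes) and 115 had an unadjusted P under 0.05, or 4.13% against 4.28% of all genes. For CPT added to priming (CPT+GTA+5-Aza against GTA+5-Aza) 0 were called (0.0% of all genes) and 68 had such a P (2.44% against 2.71%). In the interaction of CPT and priming 0 were called (0.0%) and 88 had such a P (3.16% against 2.63%). DESeq2 also called 0 in all 3, whereas a likelihood ratio test called 2 for CPT added to priming and 1 in the interaction. The smallest p among members with a symbol in CPT against Con was that of UCA1 (log2 fold change 0.23 ± 0.05, edgeR adjusted p = 0.59), whose 3 CPT libraries at 282 to 293 CPM all lay above the Con libraries at 242 to 253 CPM. LINC01764 followed with 0.25 ± 0.07 (edgeR adjusted p = 0.961).

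For the interaction, MIR23AHG and LINC02600 had the smallest p. MIR23AHG, the host gene of the miR-23a cluster, was at 13.8, 12.7 and 11.8 CPM in Con, 14.6 to 16.3 in CPT, 16.1, 13.6 and 15.1 in GTA+5-Aza and 10.8, 11.2 and 11.8 in CPT+GTA+5-Aza (interaction -0.67 ± 0.19, edgeR adjusted p = 1.0). LINC02600 was at 1.21, 1.0 and 1.31 CPM in Con and at 0.16 to 0.452 CPM in GTA+5-Aza. In CPT it was at 0.275 to 0.394 CPM and in CPT+GTA+5-Aza at 0.49 to 0.852 CPM (interaction 3.07 ± 0.88, edgeR adjusted p = 1.0). Its priming effect was downregulated without CPT (log2 fold change -2.10 ± 0.62, edgeR adjusted p = 0.0179) and not called with CPT, but the difference between both did not pass. Its call was lost without Con replicate 1, Con replicate 3, GTA+5-Aza replicate 1 or GTA+5-Aza replicate 2. MAST3-AS1 and LINC00896 had the smallest p for CPT added to priming, each with an edgeR adjusted p of 1.0.

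LncRNA genes named after a coding gene could be compared with it. In GTA+5-Aza against Con, 62.1% of 232 -DT pairs and 69.1% of 654 -AS pairs had log2 fold changes of the same sign, with a Pearson r across pairs of 0.33 and 0.40. Without exon overlap the shares were 60.6% of 109 -DT and 69.2% of 78 -AS pairs. With CPT they were 59.1% of all -DT and 64.1% of all -AS pairs, and 57.8% and 55.1% without exon overlap. The pairs share libraries and, where exons overlap, reads. In GTA+5-Aza against Con, the lncRNA gene was called in 10 and the coding gene in 6 of 232 -DT pairs. In the 654 -AS pairs these counts were 30 and 43, and 5.9% of all genes were called. Both genes of a pair were called in 0 -DT pairs, 15 -AS pairs in the same direction and 2 -AS pairs in opposite directions. With CPT the joint counts were 0, 12 and 0. There the lncRNA gene was called in 29 and the coding gene in 40 of 654 -AS pairs.

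In all but 2 of the 15 pairs the lncRNA gene had exon overlap with another gene, as had 87.9% of all 711 -AS members. DNMBP-AS1 and DNMBP, a scaffold protein gene, were such a pair. DNMBP-AS1 was at 15.8, 15.8 and 14.1 CPM in Con and at 28.1, 26.7 and 28.3 CPM in GTA+5-Aza (log2 fold change 0.86 ± 0.11, edgeR adjusted p = 5.51e-06), and DNMBP had 0.69 ± 0.06 (edgeR adjusted p = 4.15e-08). WT1-AS and WT1 (a zinc finger transcription factor) had log2 fold changes of 0.62 and 1.58, LIF-AS2 and LIF (a cytokine) 0.81 and 1.02, and IER3-AS1 and IER3 (a stress-response gene) 1.03 and 1.44. These 3 pairs were named after their values were seen. The 2 pairs of the 15 without exon overlap were BCAN-AS1 with BCAN, both upregulated, and ZNF407-AS1 with ZNF407, both downregulated (-0.64 and -0.59), though ZNF407-AS1 lost its call without Con replicate 1, Con replicate 3 or GTA+5-Aza replicate 3.

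The opposite pairs had no exon overlap and were also named after their values were seen. ROR1-AS1, antisense to the receptor gene ROR1, was at 6.47, 5.05 and 6.22 CPM in Con and at 10.1, 10.1 and 10.8 CPM in GTA+5-Aza (log2 fold change 0.80 ± 0.18, edgeR adjusted p = 0.00285), whereas ROR1 fell by 0.67 on the log2 scale (edgeR adjusted p = 2.75e-05). With CPT, ROR1-AS1 was upregulated by 1.33 and ROR1 had -0.38 (edgeR adjusted p = 0.00844, fold below 1.5). ELFN1-AS1 was downregulated (-0.60 ± 0.21, edgeR adjusted p = 0.0481) and ELFN1 upregulated (0.67, edgeR adjusted p = 0.000125). With CPT these were -0.75 and 0.33, the former downregulated and the latter below the fold threshold.

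Partners of other -DT and -AS genes with small p were compared next. IL10RB-DT was at 4.79, 7.05 and 5.83 CPM in Con and 9.88, 9.12 and 10.8 CPM in GTA+5-Aza (0.75 ± 0.17, edgeR adjusted p = 0.00302), and the cytokine receptor gene IL10RB had 0.26 (edgeR adjusted p = 0.206). IL10RB-DT has 79.6% of its exon bases on IFNAR2, another receptor gene. PDXP-DT had 0.71 ± 0.17 (edgeR adjusted p = 0.00355) and PDXP 0.15. MLF1-DT was downregulated (-0.64 ± 0.19, edgeR adjusted p = 0.021) while MLF1 had 0.37 (edgeR adjusted p = 0.0133, fold below 1.5). GABPB1-AS1 was downregulated (-0.63 ± 0.15, edgeR adjusted p = 0.00344) and GABPB1, a transcription factor subunit, had -0.02. RBM33-DT was downregulated (-0.74 ± 0.22, edgeR adjusted p = 0.0189), and RBM33 had -0.21 (edgeR adjusted p = 0.0346, fold below 1.5). H1-10-AS1 had 0.69 ± 0.09 (edgeR adjusted p = 8.49e-06) and the linker histone gene H1-10 0.56 ± 0.11 (edgeR adjusted p = 0.0008, fold below 1.5), which passed with library size only (0.60) or without Con replicate 2 (0.68), GTA+5-Aza replicate 1 (0.60) or GTA+5-Aza replicate 2 (0.60). When Con replicate 3 or either of GTA+5-Aza replicates 1 and 2 was left out, RBM33-DT and MLF1-DT lost their calls, and MLF1-DT did so for Con replicate 2 and GTA+5-Aza replicate 3 as well. The call of GABPB1-AS1 was lost without Con replicate 1. With CPT, PDXP-DT was again upregulated (0.72 ± 0.17, edgeR adjusted p = 0.00324). MLF1-DT had 0.01 with CPT (edgeR adjusted p = 0.988). Not called with CPT were also IL10RB-DT (0.45, edgeR adjusted p = 0.0632) and RBM33-DT (-0.61, edgeR adjusted p = 0.0519). GABPB1-AS1 (-0.43, edgeR adjusted p = 0.0459) and H1-10-AS1 (0.57, edgeR adjusted p = 8.71e-05) lay below the fold threshold with CPT.

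SnoRNA host genes, whose introns carry the small RNAs that guide ribosomal RNA modification, had a negative median. Of 26 tested, 0 were called by edgeR in GTA+5-Aza against Con, 7 had an unadjusted P under 0.05, 4 had an adjusted p under 0.05 with a negative log2 fold change (DANCR, SNHG1, SNHG3 and SNHG10, against 7.53% of all genes) and 6 had a positive value. The median was -0.12 against 0.01 for all genes. With CPT it was -0.02, with 2 downregulated (DANCR and SNHG10) of 26. At any fold 5 had a negative value with an adjusted p under 0.05 (7.39% of all genes) and 1, SNHG14, a positive one (9.57% of all genes). DANCR was at 93.8, 84.8 and 92.2 CPM in Con and at 55.4, 66.1 and 62.4 CPM in GTA+5-Aza (log2 fold change -0.56 ± 0.09, edgeR adjusted p = 4.85e-05, fold below 1.5). With CPT it went from 91.0, 87.6 and 75.5 CPM to 52.6, 59.9 and 51.4 CPM, and was downregulated (-0.63 ± 0.09, edgeR adjusted p = 1.03e-05). SNHG29, the most abundant at 250 to 304 CPM, had a log2 fold change of 0.01.

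LncRNA genes with other known roles were counted against 5.9% of all genes called and 29.4% with an unadjusted P under 0.05. Of 26 microRNA host genes 1 was downregulated, MIR22HG, with a list median of 0.07. The most abundant, MIR137HG, had 0.29 ± 0.07 (edgeR adjusted p = 0.00708, fold below 1.5, as 9.95% of all genes passed at any fold). Of 7 lncRNA genes of the HOX clusters 0 were called by edgeR and 0 had an unadjusted P under 0.05 (median 0.13), and HOXB-AS3, the most abundant, had 0.12. Of 6 p53-linked genes 0 were called and 0 had such a P (median -0.01). Of 15 cancer-linked lncRNA genes 2 were upregulated, UCA1 and H19 (median 0.05). Of 8 stress and hypoxia genes H19 was upregulated and MIR22HG downregulated (median 0.09). MIR210HG, a hypoxia marker, stood at 0.0477 to 1.74 CPM (log2 fold change 0.60, edgeR adjusted p = 0.604). Of 5 interferon-linked genes 0 were called and 2 had such a P without CPT (median 0.24), and CHROMR, the most abundant, had -0.02. With CPT the list's median was 1.23, but 2 of the 5 had such a P (29.3% of all genes) and only 1 had an adjusted p under 0.05. The gene at the median did not pass. The gene that passed was PSMB8-AS1, named after its values were seen, which was upregulated (0.68 ± 0.20, edgeR adjusted p = 0.0215). The proteasome gene PSMB8 (1.75), with which it has exon overlap, was upregulated as well. In the same comparison 0 microRNA host, 0 HOX cluster and 0 p53-linked genes were called by edgeR, and 2, 1 and 2 of them had such a P.

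The list of nuclear-body and other abundant lncRNA genes held the most abundant listed gene, NEAT1. NEAT1, the scaffold of paraspeckles, was at 440, 550 and 475 CPM in Con and at 526, 571 and 526 CPM in GTA+5-Aza, with overlap (log2 fold change 0.15, edgeR adjusted p = 0.264). MALAT1, a nuclear speckle RNA, was at 235, 385 and 244 CPM in Con and at 226, 286 and 190 CPM in GTA+5-Aza (-0.30, edgeR adjusted p = 0.197). MIAT was the 1 called of the 7 on this list, from 1.1, 1.38 and 1.65 CPM to 2.46, 3.76 and 3.33 CPM (1.20 ± 0.35, edgeR adjusted p = 0.0163). It lost the call without Con replicate 1, GTA+5-Aza replicate 2 or GTA+5-Aza replicate 3. The list's median was 0.00. With CPT, MIAT had 0.74 ± 0.34 (edgeR adjusted p = 0.146) and was not called.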

How the data were processed

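RNA-seq counts of 12 MiaPaca2 libraries in 4 groups were used, 1 table per library. Per the submitters' processing notes and the study's methods, the authors used Trim Galore for trimming, HISAT2 2.2.1 for alignment against GRCh38 and HTSeq for counting, on paired-end reads. What they deposited is a raw count for each gene, not scaled in any way. The annotation release and the strand setting are not given in the sources used here. Nor is the handling of reads on overlapping exons, so whether the counts separate antisense genes is not known.

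Gene types, positions and exons were taken from GENCODE release 44 by identifier. Of 18390 autosomal lncRNA genes there, 5784 were not in the tables, and all of these have a higher identifier than any in the tables. Overlaps were computed with bedtools 2.31.1. A gene with an exon base on an exon of any other gene counted as overlapping. Exons within the intron of another gene did not count, so genes without exon overlap can lie inside coding genes. Head-to-head genes started within 1000 bases of a coding gene on the other strand. Promoters came from RefSeq (964 of 1336 members with a symbol matched, under the 80% needed, so CpG content was not compared between sets).

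Counts were tested with edgeR 4.0.16 in R 4.3.3 (filterByExpr, TMM scaling, glmQLFit, glmQLFTest, 12 libraries in 1 fit, 17123 genes). P-values were Benjamini-Hochberg adjusted over all genes. Called means an adjusted p under 0.05 and a fold change above 1.5, or in the interaction an adjusted p under 0.05. Values after ± are an approximate SE, the absolute log2 fold change divided by the square root of the edgeR F statistic. They are rough where counts are near 0. CPM used TMM-scaled libraries. The code was tested on simulated data. The 12 replicate pairs had a chi-square of 3.16 to 7.525 per degree of freedom over member genes, so none was a repeat. Intervals and limits for counts of 0 (3 counts per library) cover counting error only.

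Named genes were, per name class, the 3 upregulated and 2 downregulated members with the smallest p without overlap of libraries in GTA+5-Aza against Con, the 3 and 2 likewise with CPT, 5 with at most 3 counts per Con library, 5 with the highest CPM per kb of exon, from each list the most abundant and up to 3 called, 2 with the smallest p in each other comparison, and coding partners. Genes without exon overlap and some listed lncRNA genes were added after values were seen. Members, lists and rules were chosen with earlier results of these data known. Alternatives were other scalings, filters, tests (DESeq2 1.42.0, likelihood ratio, glmTreat), fits, member rules and left-out libraries. For coding partners they were chosen after seeing the data. A result that the rule for named genes gave, and a marker of the line, are not reported here.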

Additional observations from a re-analysis of the deposited data

How the results depend on the processing

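Named log2 fold changes and counts were recomputed under each alternative that could give them. LINC00479, LINC02953, ITGB2-AS1 and LINC00896 had no value with a mean CPM above 1 or with only 2 groups fitted, ZNF582-DT, LINC02600 and MIR210HG had none with a mean CPM above 1, and the interaction has no value for glmTreat, a fit of 2 groups or unadjusted P. Of the named values, 1442 kept direction and side of the threshold, 76 lost a call, 8 gained one (4 of them H1-10, 2 ITGB2-AS1, 1 MAST3-AS1 and 1 LINC00896) and 18 changed sign. None of the 18 was called. They belong to ENSG00000265401 (0.04 with library size only, 0.01 with upper quartile scaling, 0.00 without Con replicate 2, and 0.01 when GTA+5-Aza replicate 1 was left out), VIM-AS1 (0.02 with library size only, 0.02 without Con replicate 2, and 0.04 when GTA+5-Aza replicate 2 was left out), SNHG29 (-0.00, -0.01 and -0.04 without Con replicate 1, Con replicate 3 and GTA+5-Aza replicate 1, range -0.04 to 0.05), CHROMR (0.02 with library size only and when Con replicate 3 or GTA+5-Aza replicate 1 was left out, range -0.07 to 0.02), BOLA3 (-0.01 without Con replicate 3, range -0.01 to 0.09), PDXP (-0.12 without GTA+5-Aza replicate 3, range -0.12 to 0.30) and GABPB1 (0.02 with library size only, 0.04 without Con replicate 3, and 0.06 when GTA+5-Aza replicate 3 was left out, range -0.09 to 0.06). Of the counts, 404 stayed within 1.5 times and 99 moved further. The median log2 fold change of all genes without CPT was 0.007 and reached at most 0.047 under other scalings.

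Counts are given first without and then with CPT, upregulated before downregulated, and classes in the order -DT, -AS, LINC, other symbol and identifier only. Testing against a fold change of 1.5 (glmTreat) left 10 and 1, then 12 and 1, with 1, 2, 1, 3 and 4 by class, then 0, 3, 2, 2 and 6. A fold change above 1.5 with an unadjusted P under 0.05 gave 153 and 81, then 144 and 87, with 20, 51, 30, 15 and 118 by class, then 12, 54, 26, 21 and 118. It gave 26 and 52 in CPT against Con and 15 and 27 for CPT added to priming, against 118 and 195, then 59 and 113 of all 17123 genes. Members without exon overlap gave 21 and 13, then 19 and 14, with 3, 9, 9, 2 and 11 by class, then 3 -DT, 4 -AS, 3 other symbol and 15 identifier only, and 2 and 1 pairs called with the coding gene. A likelihood ratio test gave 51 and 51 downregulated genes, 2 for CPT added to priming, 1 in the interaction, 81 with an identifier only without CPT, and 8 -DT and 19 LINC with CPT. Fitting only the groups compared gave 16 -DT genes without CPT, and with CPT 21 downregulated genes and 31 with an identifier only. A minimum of 50 counts gave 6 -DT and 11 LINC genes without CPT, and with CPT 20 downregulated genes, 5 LINC, 7 other symbol and 32 identifier only. A mean CPM above 1 gave 11 and 6 LINC genes, and no filter 1 downregulated gene for CPT added to priming. With classes by position, head-to-head genes gave 30 and 24, antisense overlap 55 and 51, and neither 35 and 35. The causes of these shifts were not tested, apart from the fewer genes or samples that an alternative leaves.

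With 1 library left out, upregulated counts were 57 to 94 and 51 to 121, and downregulated counts 18 to 36 and 14 to 38. By class they were 3 to 11, 20 to 34, 9 to 18, 7 to 11 and 30 to 56, then 2 to 6, 24 to 46, 7 to 14, 6 to 15 and 29 to 79. CPT against Con, CPT added to priming and the interaction stayed at 0.

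Replicate numbers did not pair the samples (correlations of deviations -0.048 to 0.117). With the replicate number as a block, 84 and 30, then 79 and 30 genes were called, 14 and 12 pairs, and 0 for CPT. DESeq2 gave 90 and 38, then 86 and 39, and 16 and 12 pairs. The settings for pairs were chosen after seeing the data. Of the 2873 members, 1834 reached 10 counts in all 12 libraries.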
